A study of Mus musculus with 82 samples.

Results

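The genes described here are 34 genes of the acid-making machinery and the limiting membrane of the lysosome: 20 subunits of the vacuolar-type proton pump (V-ATPase) with its accessory subunits, and 14 lysosomal membrane proteins and their partners. They were taken from a list of names matched, ignoring case, in all 8 deposited gene tables, and all 34 were found among the 14872 gene symbols that every table holds. Of the 20 pump genes, 9 encode the membrane sector (V0), 9 the cytosolic sector (V1) and 2 accessory subunits. Of the other 14, 5 encode glycoproteins or membrane-spanning proteins, 5 channels or ion exchangers, and 4 proteins that clear cholesterol or small molecules from the lumen. The pump subunit Atp6v0d2, known from specialised cells, was set against the other 19 pump genes in every comparison within a table. These 19 are called common subunits here, Tcirg1 and Atp6v1g2 included.

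RNA from mouse sciatic nerve was sequenced in 82 libraries of 22 groups. A pair of tables held Fig4 -/- and Fig4 +/+ nerves, 1 at postnatal day 4 (P4) and 1 at P12, with 3 libraries a group. The next table held 5 libraries labelled Mitf and 5 labelled DhhCre at P21, and the one after it 3 labelled Mitf and 3 labelled Egr2Cre at P12. The fifth held 4 nerves at 3 days post injury and 4 uninjured nerves, all labelled Mitf. The sixth followed Mutant and wild type nerves at 3, 7 and 14 days post injury (3 libraries a group), the seventh compared 3 Egr2Cre Mitf libraries with 3 labelled Mitf, and the eighth held 5 Mitf-Ndrg1, 5 Ndrg1, 6 Mitf and 6 control libraries. DhhCre and Egr2Cre are the names of Cre drivers used in Schwann cells, the glia of the nerve. The labels give no alleles, no cell type in which a gene was altered, no kind of injury and, for the last 4 tables, no age, and they do not say which of a pair such as Mitf and DhhCre carries an altered Mitf gene. They also do not say whether replicates came from separate mice, and the p-values here therefore cover library-to-library spread, which may be technical.

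The V-ATPase is a rotary motor: V1 burns ATP in the cytosol and turns a stalk that drives protons through V0 into the lumen. The acid activates lysosomal hydrolases, and the membrane glycoproteins, channels and exporters around the pump keep the lumen closed, balanced in ions and cleared of breakdown products. In the nerve, Schwann cells and macrophages both digest myelin debris in lysosomes after injury. Most subunits are made in every cell, whereas Atp6v0d2, a form of the d subunit of the V0 stalk, is known in mouse from osteoclasts and macrophages, where Mitf and Nfatc1 are known regulators of its transcription. Many genes of this machinery are targets of the Mitf, Tfeb and Tfe3 family through a promoter sequence called the CLEAR element.

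The start-site windows of these genes were read from RefSeq (GRCm38.p6), 250 bases before to 50 after each start, and 26 of the 34 genes matched. The genes without an entry were Atp6v0a2, Atp6v0d2, Atp6v1b2, Atp6v1c1, Atp6v1g1, Atp6v1h, Npc1 and Tpcn1. The CLEAR core TCACGTG, searched on both strands, was found in 8 of the 26 matched genes (30.8%), namely Atp6v0b, Atp6v0d1, Atp6v0e, Atp6v1a, Clcn7, Cln3, Lamp1 and Mcoln1, and in 4.29% of all 27025 genes of the table. The E-box CACGTG, which lies inside it, was found in the same 8 genes (30.8%) and in 8.09% of all genes. The M-box core TCATGTG was found in 3 matched genes (11.5%, against 4.31% of all genes) and the AP-1 site TGANTCA in 1 (3.85%, against 8.97%). These matches describe letters in a window and no binding was measured. Many genes of this machinery are known CLEAR targets, so a share above that of all genes was likely beforehand and is no test. The windows below are shown because Lamp1 had the most CLEAR cores, Atp6v0b and Atp6v0d1 are pump subunits with a match, and Cd63 had none. The Cd63 window lies inside the annotated gene, which starts at 128900989, so other start sites were not read. Cd63 RNA rose in 4 comparisons and fell in 3, and Atp6v0b RNA rose in 3 and fell in 2. Whether RNA changes go with these matches was not tested. Capitals mark CLEAR cores on either strand, which overlap into one 8-letter run where the core reads the same on both.
Lamp1, chr8:13158911-13159210, plus strand: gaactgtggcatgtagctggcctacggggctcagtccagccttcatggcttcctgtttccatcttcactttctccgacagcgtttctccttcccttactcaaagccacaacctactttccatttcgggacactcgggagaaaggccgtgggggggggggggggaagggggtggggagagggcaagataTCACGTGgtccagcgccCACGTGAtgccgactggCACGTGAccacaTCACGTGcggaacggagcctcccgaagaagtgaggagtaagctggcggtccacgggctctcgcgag
Atp6v0b, chr4:117887280-117887579, minus strand: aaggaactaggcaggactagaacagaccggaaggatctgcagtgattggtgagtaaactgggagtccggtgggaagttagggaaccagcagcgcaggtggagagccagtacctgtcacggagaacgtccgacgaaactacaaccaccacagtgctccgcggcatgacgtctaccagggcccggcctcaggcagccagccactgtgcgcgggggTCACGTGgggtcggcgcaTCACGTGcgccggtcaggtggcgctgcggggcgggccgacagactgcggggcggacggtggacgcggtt
Atp6v0d1, chr8:105566015-105566314, minus strand: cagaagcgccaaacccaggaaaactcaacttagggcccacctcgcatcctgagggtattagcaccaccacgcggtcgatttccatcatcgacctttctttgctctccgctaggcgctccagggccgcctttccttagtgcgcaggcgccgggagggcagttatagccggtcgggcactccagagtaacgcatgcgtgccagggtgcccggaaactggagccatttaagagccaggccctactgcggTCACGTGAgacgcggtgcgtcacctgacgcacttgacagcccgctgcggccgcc
Cd63, chr10:128909095-128909394, plus strand: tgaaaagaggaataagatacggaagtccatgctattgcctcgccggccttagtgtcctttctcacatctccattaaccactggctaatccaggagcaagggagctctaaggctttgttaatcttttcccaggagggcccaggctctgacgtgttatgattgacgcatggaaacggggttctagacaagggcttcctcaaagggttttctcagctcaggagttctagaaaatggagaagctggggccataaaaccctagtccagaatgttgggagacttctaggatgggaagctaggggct

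Library totals lay between 15440000 and 34530000 estimated counts. The labels were checked on the named genes, in CPM, counts relative to the effective library total of each library. Fig4 RNA averaged 4.43 ± 1.42 CPM in Fig4 -/- and 22.7 ± 4.06 CPM in Fig4 +/+ nerves at P12 (SD, n = 3 each), and 4.46 ± 0.35 against 30.3 ± 3.04 CPM at P4. Ndrg1 RNA averaged 181 ± 11.4 CPM in Ndrg1 (n = 5) and 1965 ± 95.5 CPM in control nerves (n = 6), and 177 ± 12.3 CPM in Mitf-Ndrg1 (n = 5) against 1773 ± 195 CPM in Mitf nerves (n = 6). Mitf RNA averaged 19.7 ± 1.69 CPM in libraries labelled Mitf and 5.74 ± 1.05 CPM in DhhCre at P21 (SD, n = 5 each), 14.0 ± 0.452 against 8.45 ± 1.5 CPM in Mitf and Egr2Cre at P12 (n = 3 each), and 8.06 ± 1.60 against 11 ± 0.868 CPM in Egr2Cre Mitf and Mitf of the seventh table (n = 3 each). In the eighth table it averaged 12.2 ± 1.66 CPM in Mitf and 18 ± 2.19 CPM in control nerves (n = 6 each), and 15.1 ± 2.42 CPM in Mitf-Ndrg1 and 18.6 ± 3.23 CPM in Ndrg1 nerves (n = 5 each). Of these 5 pairs the one at P21 alone passed the test for Mitf RNA (edgeR adjusted p = 2.95e-05). Mitf against control gave a log2 change of -0.55 ± 0.118 (edgeR adjusted p = 0.236). Every p here is adjusted over all genes, a stricter bar than a check of 1 named gene needs. Missing it therefore does not decide the Mitf label at P12 or in the seventh and eighth tables. The tissue label was checked on 10 Schwann cell markers, whose summed level lay between 38438 and 229021 CPM outside the time course and the seventh table. It lay between 990 and 13498 CPM in the time course and between 22370 and 32838 CPM in the seventh table. Summed CPM of 9 skeletal muscle markers exceeded 5000 in 1 or more libraries of 10 groups. It reached 124829 in a Mutant library at day 14. The part of muscle in the results was not tested, and the fits without those libraries or with a muscle covariate do not settle it.

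Levels are compared between genes per kilobase of the longest coding transcript. In control nerves Lamp1, the main glycoprotein of the lysosomal membrane, was highest of the 34 genes with 546 CPM per kb, followed by Cd63, a tetraspanin, with 151, and Npc2, the lumenal partner in cholesterol export, with 147. The length used was 1109 bases for Cd63 and 3299 bases for Npc2, and a shorter transcript would place a gene higher. Which transcripts the nerve uses was not measured, so all ranks and shares per kb depend on that choice. Among pump subunits the highest in control nerves were Atp6v1g1, a peripheral stalk subunit, with 110 CPM per kb, the accessory subunit Atp6ap1 with 109, and Atp6v0c, the main proteolipid of the proton-carrying ring, with 108. Among V0 a subunits, which carry the proton path, Atp6v0a1 had 26.3, Atp6v0a2 11.9 and Tcirg1 10.5 CPM per kb. Atp6v0d2 was lowest of all 34 genes in control nerves with 0.267 CPM per kb, against 60.3 CPM per kb for its common counterpart Atp6v0d1. It was also lowest of the 34 in every other group without injury or Ndrg1 label, apart from Fig4 -/- at P12 and the seventh table, whose labels give no injury. In Fig4 -/- nerves at P12 it ranked 16 of 20 subunits with 10.8 CPM per kb. In injured nerves it had 5.3 CPM per kb and was still lowest of the 20 subunits. It ranked 18 of 20 in both groups with an Ndrg1 label, between 16 and 19 in the time course, and 16 in both groups of the seventh table, where it made up 23.9% and 23.7% of both d subunits per kb in Egr2Cre Mitf and Mitf libraries. Summed macrophage markers in that seventh table lay between 3449 and 3688 CPM in Egr2Cre Mitf and between 2230 and 3559 CPM in Mitf libraries, against 636 to 834 CPM in control nerves of the eighth, and since the labels name no injury, injured and intact nerve cannot be told apart for it.

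**Figure D1:**
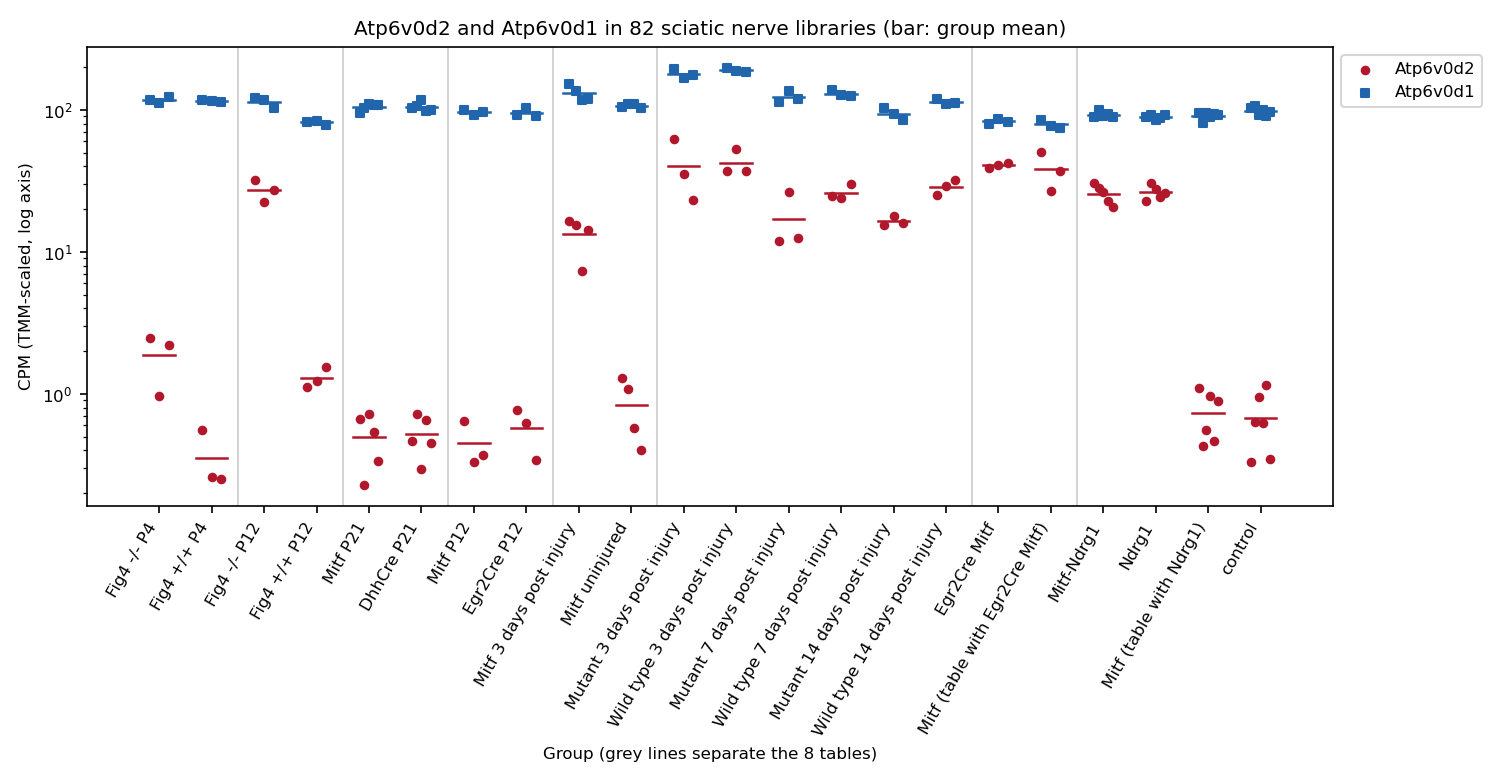
CPM of Atp6v0d2 (red circles) and Atp6v0d1 (blue squares) in each of the 82 libraries, on a log axis, by group; bars are group means and grey lines separate the 8 tables. Atp6v0d1 lies between 74.6 and 198 CPM in every library, while Atp6v0d2 runs between 0.229 CPM in a Mitf library at P21 and 62.5 CPM in a Mutant library at day 3.

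Atp6v0d2 (chr4:19876841-19922605, minus strand, mm10) showed the largest log2 change of the 34 genes in Fig4 -/- nerves at P12, after injury and in both comparisons across the Ndrg1 label. In Fig4 -/- nerves at P12 it had 32.1, 22.5 and 27.4 CPM, against 1.12, 1.24 and 1.54 CPM in Fig4 +/+ nerves. The groups did not overlap, and the log2 change was 4.39 ± 0.266 (SE, edgeR adjusted p = 7.4e-06). In bulk nerve, more or fewer cells of a type cannot be told apart from more or less RNA per cell. At P4 it had 2.46, 0.962 and 2.22 CPM in Fig4 -/- nerves, against 0.554, 0.26 and 0.253 CPM in Fig4 +/+ nerves. These groups did not overlap either, but the log2 change of 2.41 ± 0.531 did not pass the test (edgeR adjusted p = 1). Injured nerves had 16.4, 15.6, 7.39 and 14.3 CPM, against 1.29, 1.08, 0.58 and 0.4 CPM in uninjured nerves, a log2 change of 4.00 ± 0.446 (edgeR adjusted p = 0.00173). Ndrg1 nerves had 22.8, 30.5, 27.8, 24.3 and 26.2 CPM. Control nerves had between 0.334 and 1.16 CPM with a median of 0.631 (n = 6), so that every Ndrg1 library was above every control library, and the log2 change was 5.24 ± 0.243 (edgeR adjusted p = 1.81e-14). Mitf-Ndrg1 nerves had 30.8, 28.0, 26.3, 22.8 and 20.7 CPM, and Mitf nerves of that table between 0.429 and 1.1 CPM with a median of 0.728 (n = 6), a log2 change of 5.12 ± 0.241 (edgeR adjusted p = 2.34e-14).

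The level of Atp6v0d2 did not pass the test between any pair of groups that differed in the Mitf or Mutant label. At P21 it had between 0.229 and 0.725 CPM in Mitf and between 0.298 and 0.719 CPM in DhhCre nerves (n = 5 each). It missed the low-count filter in that table, and without the filter its log2 change was -0.06 ± 0.45. At P12 it had 0.647, 0.334 and 0.373 CPM in Mitf and 0.769, 0.627 and 0.342 CPM in Egr2Cre nerves. Egr2Cre Mitf libraries had 39.0, 41.2 and 42.0 CPM and Mitf libraries of that comparison 50.5, 26.8 and 37.4 CPM, where the range of the Mitf group held all 3 values of the other. Mitf-Ndrg1 against Ndrg1 gave a log2 change of -0.03 ± 0.201, Mitf against control 0.09 ± 0.272, and the interaction of both labels -0.13 ± 0.338 (edgeR adjusted p = 0.961, 0.998 and 0.923). In the time course, Atp6v0d2 was already high at day 3, with 62.5, 35.3 and 23.3 CPM in Mutant and 37.0, 52.7 and 37.2 CPM in wild type nerves. At day 14 Mutant nerves had 15.5, 17.8 and 16.0 CPM, all below the 25.3, 29.2 and 32.0 CPM of wild type nerves, and the log2 change of -0.81 ± 0.324 did not pass the test (edgeR adjusted p = 0.118).

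The ratio of Atp6v0d2 to Atp6v0d1 inside each library was compared in 17 pairs of groups by two-sided exact permutation tests. The mean log2 ratio (pseudocount 0.5 CPM) was -1.75 ± 0.157 in Ndrg1 (n = 5) and -6.44 ± 0.46 in control nerves (SD, n = 6), a difference of 4.69 (exact p = 0.00433, adjusted over the 17 pairs 0.0368). It was -1.84 ± 0.219 in Mitf-Ndrg1 (n = 5) and -6.25 ± 0.313 in Mitf nerves (n = 6), a difference of 4.40 with the same exact p of 0.00433, the smallest these group sizes allow. In Fig4 -/- nerves at P12 it was -2.05 ± 0.26, against -5.52 ± 0.206 in Fig4 +/+ nerves, a difference of 3.47 (exact p = 0.1, the smallest that 3 against 3 allows). At P4 the difference was 1.40 (exact p = 0.1), a size set largely by the pseudocount, since it was 0.67 with 2 CPM and 2.05 with 0.1 CPM. In injured against uninjured nerves the difference was 3.10 (exact p = 0.0286, adjusted 0.162). The groups did not overlap in these 5 pairs or in Mutant against wild type at day 14 (-0.51, exact p = 0.1), and overlapped in the other 11.

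Fig4 encodes a phosphatase of the complex that makes a lysosomal phosphoinositide, the lipid that opens Mcoln1. In Fig4 -/- nerves at P12, 3 of the 34 genes rose and none fell, against 3.03% of the 14338 genes tested called in either direction and 1.87% called higher. The median log2 change was 0.24 over the 34 genes and 6.22e-05 over all genes. Beside Atp6v0d2 these were Cd63 and Atp6v1b2, the B subunit of the ATP-burning hexamer. Cd63 had 650, 625 and 616 CPM in Fig4 -/- and 231, 246 and 265 CPM in Fig4 +/+ nerves, a log2 change of 1.35 ± 0.113 (edgeR adjusted p = 6.06e-05). Atp6v1b2 had 160, 191 and 152 CPM in Fig4 -/- and 81.6, 73.0 and 82.9 CPM in Fig4 +/+ nerves, a log2 change of 1.08 ± 0.129 (edgeR adjusted p = 0.000838). Neither gene's groups overlapped. Atp6v0d1 had 122, 117 and 103 CPM in Fig4 -/- and 82, 84.0 and 78.9 CPM in Fig4 +/+ nerves, and its log2 change of 0.48 ± 0.121 missed the threshold (edgeR adjusted p = 0.0559). Tcirg1, the a3 subunit needed for acid secretion by osteoclasts, had 9.7, 5.4 and 4.96 CPM in Fig4 -/- and 4.8, 4.4 and 4.71 CPM in Fig4 +/+ nerves. Without Fig4 -/- replicate 3 the count of genes that passed was 5. At P4 none of the 34 passed by edgeR or DESeq2, where 0.00672% of the 14888 genes tested were called, and 1 of the 34 had an unadjusted p under 0.05, against 0.846% of all genes.

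Among 18 macrophage markers, 11 rose in Fig4 -/- nerves at P12 and none fell, among them Mpeg1 with a log2 change of 2.40. Their summed level was between 1147 and 1509 CPM in Fig4 -/- and between 644 and 785 CPM in Fig4 +/+ nerves. Of 9 osteoclast markers, 4 passed the low-count filter and none was called, and their summed level was between 80.6 and 106 CPM in Fig4 -/- and between 84.5 and 104 CPM in Fig4 +/+ nerves. Dcstamp, Ocstamp, Calcr and Oscar were at 0 in every Fig4 -/- library, and Dcstamp and Calcr also in every Fig4 +/+ library, while Ctsk, a collagen-cutting protease that fibroblasts also make, averaged 63.2 ± 14 CPM in Fig4 -/- and 70.5 ± 9.45 CPM in Fig4 +/+ nerves (SD, n = 3 each). The part of macrophages in the changes of the 34 genes was not tested. Of 14 genes of the Ragulator and Rag complex, which tethers mTORC1 to the lysosome, Rragd alone passed the test (1.18 ± 0.261, edgeR adjusted p = 0.0337). Of 37 further lysosomal membrane genes tested, 4 rose and none fell, among them Gpnmb with a log2 change of 5.27 and the macrophage glycoprotein Cd68 with 1.55.

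At 3 days post injury, 11 of the 34 genes rose and 1 fell, against 22.1% of 15245 genes called in either direction, 11.7% higher and 10.4% lower. Of these 12, 9 were among the 20 pump genes, all higher, with 5 of 9 in V0 and 4 of 9 in V1. The median log2 change was 0.29 over the 19 common subunits, -0.10 over the 14 membrane genes and 0.035 over all genes. Atp6v1b2 had 233, 234, 148 and 206 CPM in injured and 91.7, 84.8, 88.6 and 77.1 CPM in uninjured nerves, a log2 change of 1.26 ± 0.158 (edgeR adjusted p = 0.00195). Atp6v1h, a regulatory subunit of V1, had 58.4, 57.6, 38.5 and 45.5 CPM in injured and 29.5, 25.3, 20.3 and 22.2 CPM in uninjured nerves, a log2 change of 1.04 ± 0.173. The groups did not overlap for either gene, and every injured library was the higher one. Tcirg1 had 60.3, 105, 52.2 and 59.7 CPM in injured and 32.8, 30.2, 34.9 and 37.1 CPM in uninjured nerves, a log2 change of 1.04 ± 0.209, with injured replicate 2 far above the rest. Atp6v0b, a proteolipid of the V0 ring, had 165, 155, 117 and 135 CPM in injured and 89.1, 79.0, 82.6 and 84.3 CPM in uninjured nerves, a log2 change of 0.77 ± 0.13. Smaller rises passed for Atp6v0c (0.49), Atp6v1g1 (0.47), Atp6v0e (0.38) and the rotor subunit Atp6v1d (0.35).

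Among the lysosomal membrane genes, Cd63 had 502, 424, 346 and 427 CPM in injured and 223, 211, 185 and 200 CPM in uninjured nerves, a log2 change of 1.05 ± 0.145 (edgeR adjusted p = 0.00256). Tpcn2, an endolysosomal cation channel, had 13.8, 24.5, 9.99 and 14.2 CPM in injured and 3.72, 4.69, 7.49 and 8.06 CPM in uninjured nerves, a log2 change of 1.38 ± 0.341. Ctns, the exporter of cystine, was the gene that fell: it had 48.8, 55.2, 71.3 and 67.7 CPM in injured and 86.8, 87.2, 84.8 and 82.6 CPM in uninjured nerves, a log2 change of -0.49 ± 0.133 (edgeR adjusted p = 0.0263). None of these 3 genes had overlapping groups. The other 11 membrane genes, Lamp1 and Lamp2 included, did not pass. The calls of Atp6v0c, Atp6v0e, Atp6v1d, Atp6v1g1, Ctns and Tpcn2 were each lost when some single library was left out. The count of 12 was 7, 6 and 7 without uninjured replicates 1, 2 and 3, and 7 without injured replicate 2. Summed macrophage markers were between 1181 and 3141 CPM in injured and between 631 and 1573 CPM in uninjured nerves, with 4 of 18 called higher, among them Trem2 and Aif1. Of 10 Schwann cell markers 7 fell, and the summed level was between 38438 and 94005 CPM in injured and between 105641 and 131409 CPM in uninjured nerves. The part of either in the changes was not tested.

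**Figure D2:**
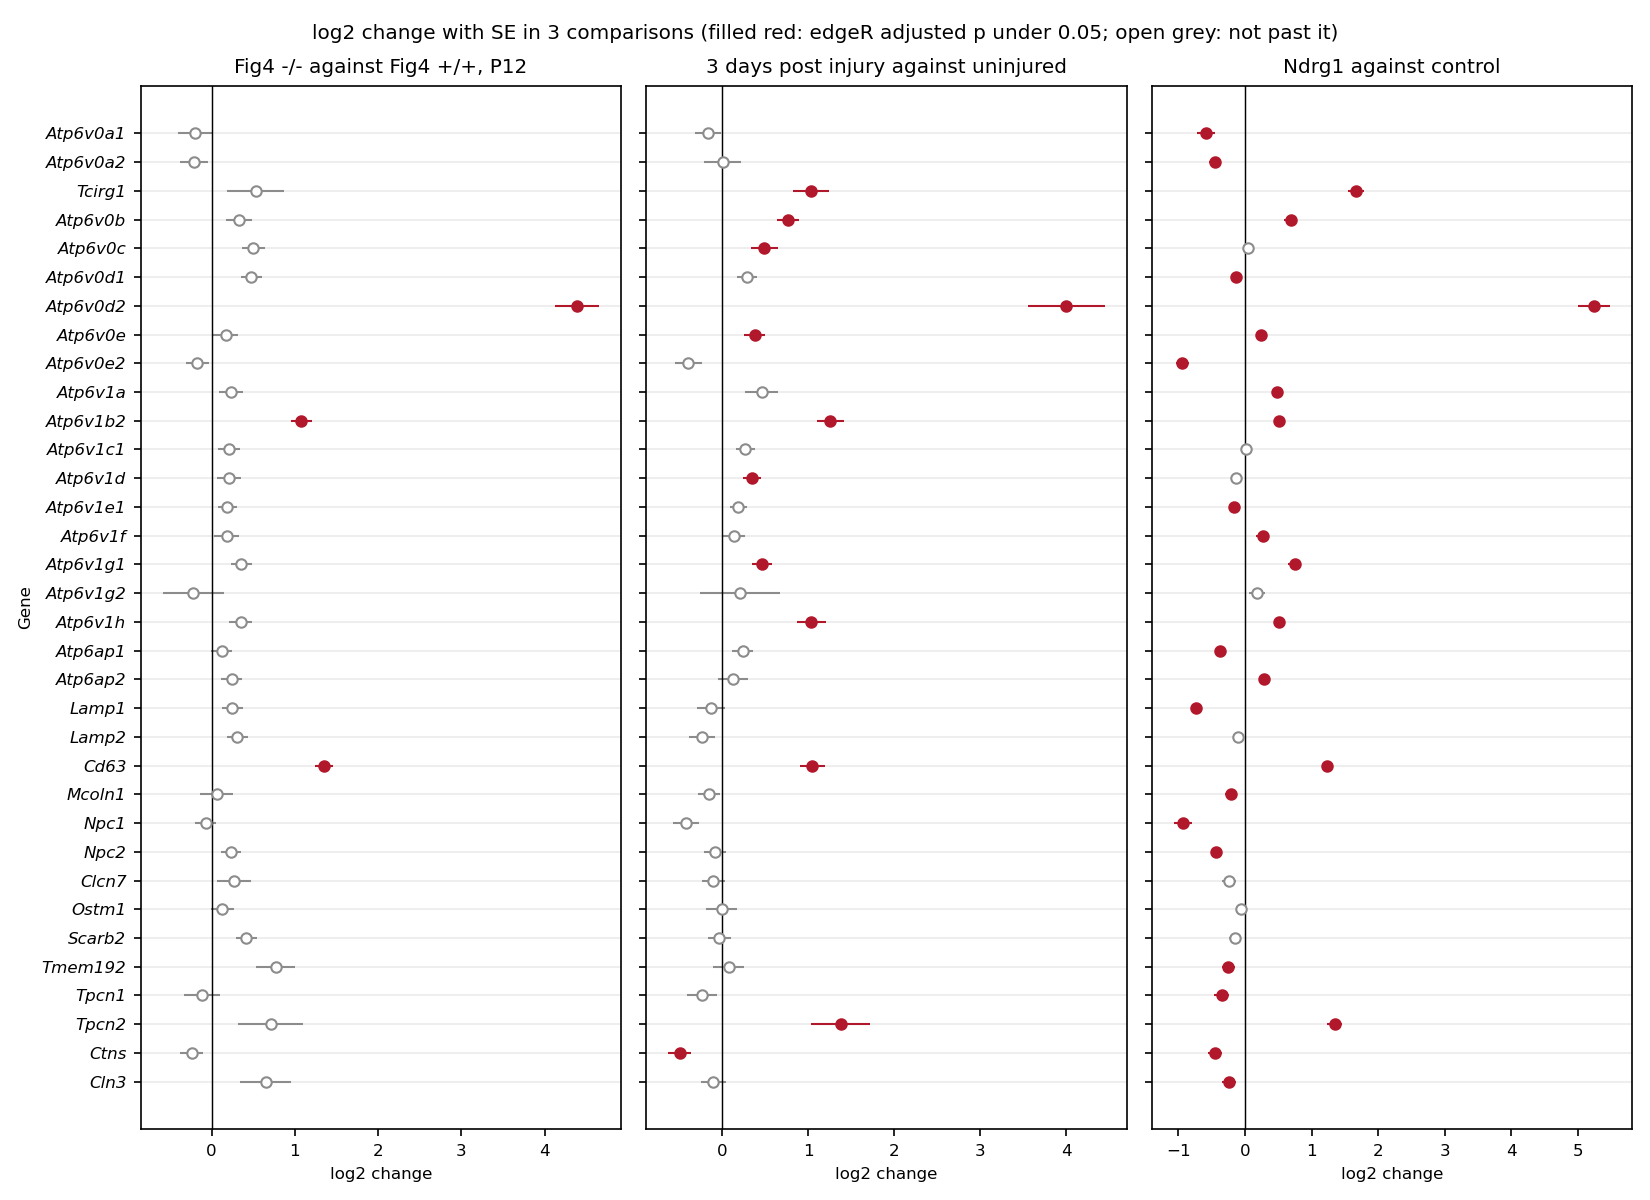
log2 change with its SE (bars) for each of the 34 genes in Fig4 -/- against Fig4 +/+ at P12, 3 days post injury against uninjured, and Ndrg1 against control; filled red points passed edgeR's test and open grey points did not. Atp6v0d2 stands between 4.00 and 5.24 in all 3 panels, and the next highest gene is Cd63, Tpcn2 or Tcirg1 with changes between 1.35 and 1.67.

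In Mutant nerves, 21 of the 34 genes fell and none rose between day 3 and day 7 after injury, against 17.2% lower and 16.2% higher (33.4% in all) of 15852 genes. The median log2 change was -0.59 over the 34 genes and 0.00058 over all genes. In wild type nerves 22 fell and 1 rose, against 39.1% of all genes called, 19.6% lower and 19.4% higher, with a median of -0.75 over the 34 genes and 0.0355 over all. Of the 19 common pump subunits 13 fell in each genotype, both accessory subunits among them. Atp6v1b2 had 526, 554 and 510 CPM at day 3, 126, 137 and 160 CPM at day 7, and 116, 110 and 120 CPM at day 14 in wild type nerves. Its log2 change at day 7 against day 3 was -1.78 ± 0.147 in Mutant and -1.91 ± 0.148 in wild type nerves (edgeR adjusted p = 1.31e-06 and 5.67e-07). Tcirg1 had 77.2, 83.6 and 67.5 CPM at day 3, 18.5, 28.7 and 28.1 CPM at day 7, and 15.9, 14.3 and 16.1 CPM at day 14 in wild type nerves, a first step of -1.60 ± 0.241. For both genes the day 3 libraries lay above all later ones. Atp6v0a1, the a subunit common in neurons, had 81.3, 83.5 and 68.4 CPM at day 3 and 17.1, 27.7 and 32.5 CPM at day 7 in wild type nerves (-1.59 ± 0.222).

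Of the 14 lysosomal membrane genes, 9 fell and 1 rose in wild type nerves between day 3 and day 7. Cd63 reached 1433, 1225 and 1327 CPM at day 3, its highest level in the series, and had 773, 722 and 816 CPM at day 7 (-0.79 ± 0.169). Cln3, a lysosomal membrane protein lost in a childhood storage disease, had 46.2, 48.0 and 41.8 CPM at day 3 and 14.1, 16.8 and 18.8 CPM at day 7 (-1.45 ± 0.194). Mcoln1, the calcium release channel of the lysosome, had 41.8, 44.1 and 36.6 CPM at day 3 and 13.6, 16.5 and 25.2 CPM at day 7 (-1.15 ± 0.17). All day 7 libraries were below all day 3 libraries for these 3 genes. Npc1, the membrane partner of Npc2, fell by 1.34, Clcn7, the chloride and proton exchanger, by 0.92, and its partner Ostm1 by 0.63 on the log2 scale. Lamp2 was the gene that rose: it had 326, 316 and 325 CPM at day 3 and 377, 451 and 486 CPM at day 7 (0.44 ± 0.138, edgeR adjusted p = 0.0194). Atp6v0d2 in Mutant nerves had 12, 26.4 and 12.6 CPM at day 7, and its step at day 7 against day 3 of -1.25 ± 0.324 passed (edgeR adjusted p = 0.00815), but it was -0.77 and did not pass without Mutant replicate 1 of day 3. In wild type nerves it had 24.6, 23.9 and 30.0 CPM at day 7 and 25.3, 29.2 and 32.0 CPM at day 14. Its step of -0.69 ± 0.319 did not pass the test (edgeR adjusted p = 0.0964). With the muscle level as a covariate it was -1.21 and passed, but muscle level and day went together in these groups.

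Between day 7 and day 14, 5 of the 34 genes fell in Mutant nerves, against 17.7% of all genes called, 8.55% higher and 9.16% lower: Atp6v0d1, Atp6v1a (the ATP-burning A subunit), Cd63, Cln3 and Scarb2, the receptor that carries glucocerebrosidase to the lysosome. That count was 0 without Mutant replicate 2 of day 7, 2 without replicate 3 of day 7, 2 without replicate 1 or 2 of day 14, and 8 without replicate 3 of day 14. In wild type nerves none passed edgeR's test between those days (7.41% of all genes called, 2.52% higher and 4.9% lower), where 5 of the 34 (14.7%) had an unadjusted p under 0.05, against 32.2% of all genes, and DESeq2 called 2. Summed muscle markers lay between 5.55 and 250 CPM at day 3, 1104 and 2490 CPM at day 7, and 4994 and 124829 CPM at day 14 in Mutant nerves. They lay between 253 and 1768 CPM, 2601 and 28348 CPM, and 8306 and 98368 CPM at those days in wild type nerves. With the muscle level as a covariate, 21 of the 34 genes fell and 1 rose in Mutant nerves between day 3 and day 7, where 12.6% of all genes were called lower and 14% higher. In wild type nerves 25 fell and 1 rose in that fit, against 16.3% lower and 17.4% higher. Muscle levels did not overlap between day 3 and day 7 in either genotype. The covariate fit therefore separates muscle from day only through the spread inside groups, and it cannot settle the part of muscle. Leaving out the muscle-rich libraries dropped none of the Mutant libraries of day 3 and day 7, so it could not test muscle there. That fit gave 23 lower and 2 higher genes of the 34 in Mutant nerves (23.7% and 24.1% of all genes). In wild type nerves it dropped 2 of the 3 day 7 libraries. Its counts there rest on 1 day 7 library and are not given. Of 18 macrophage markers, 7 fell in Mutant and 3 in wild type nerves between day 3 and day 7, with summed levels between 2616 and 8768 CPM over the 6 groups, and their part was not tested. The steps of a genotype share the day 7 libraries.

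Mutant against wild type gave no edgeR call among the 34 genes at day 3, day 7 or day 14, and DESeq2 called 0, 0 and 5 of them. DESeq2 also called more of all genes than edgeR at day 7 and day 14 (counts below). Its 5 calls therefore do not set the 34 genes apart. By edgeR, 0% of all genes were called at day 3 and at day 7, and 8.29% at day 14 (7.05% higher and 1.24% lower). At unadjusted p under 0.05 there were 0, 3 and 9 of the 34 genes at the 3 times, against 1.89%, 13.2% and 28.6% of all genes. Tpcn1, an endolysosomal cation channel like Tpcn2, came nearest at day 14 with a log2 change of 0.74 ± 0.229 (edgeR adjusted p = 0.0582), and Cd63 followed with -0.51 ± 0.169 (edgeR adjusted p = 0.0699). The day 14 edgeR count was 3 without Mutant replicate 1 and 12 without Mutant replicate 2 of that day. The share of all genes called in those fits was not set beside them, so they show only how calls depend on single libraries.

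**Figure D3:**
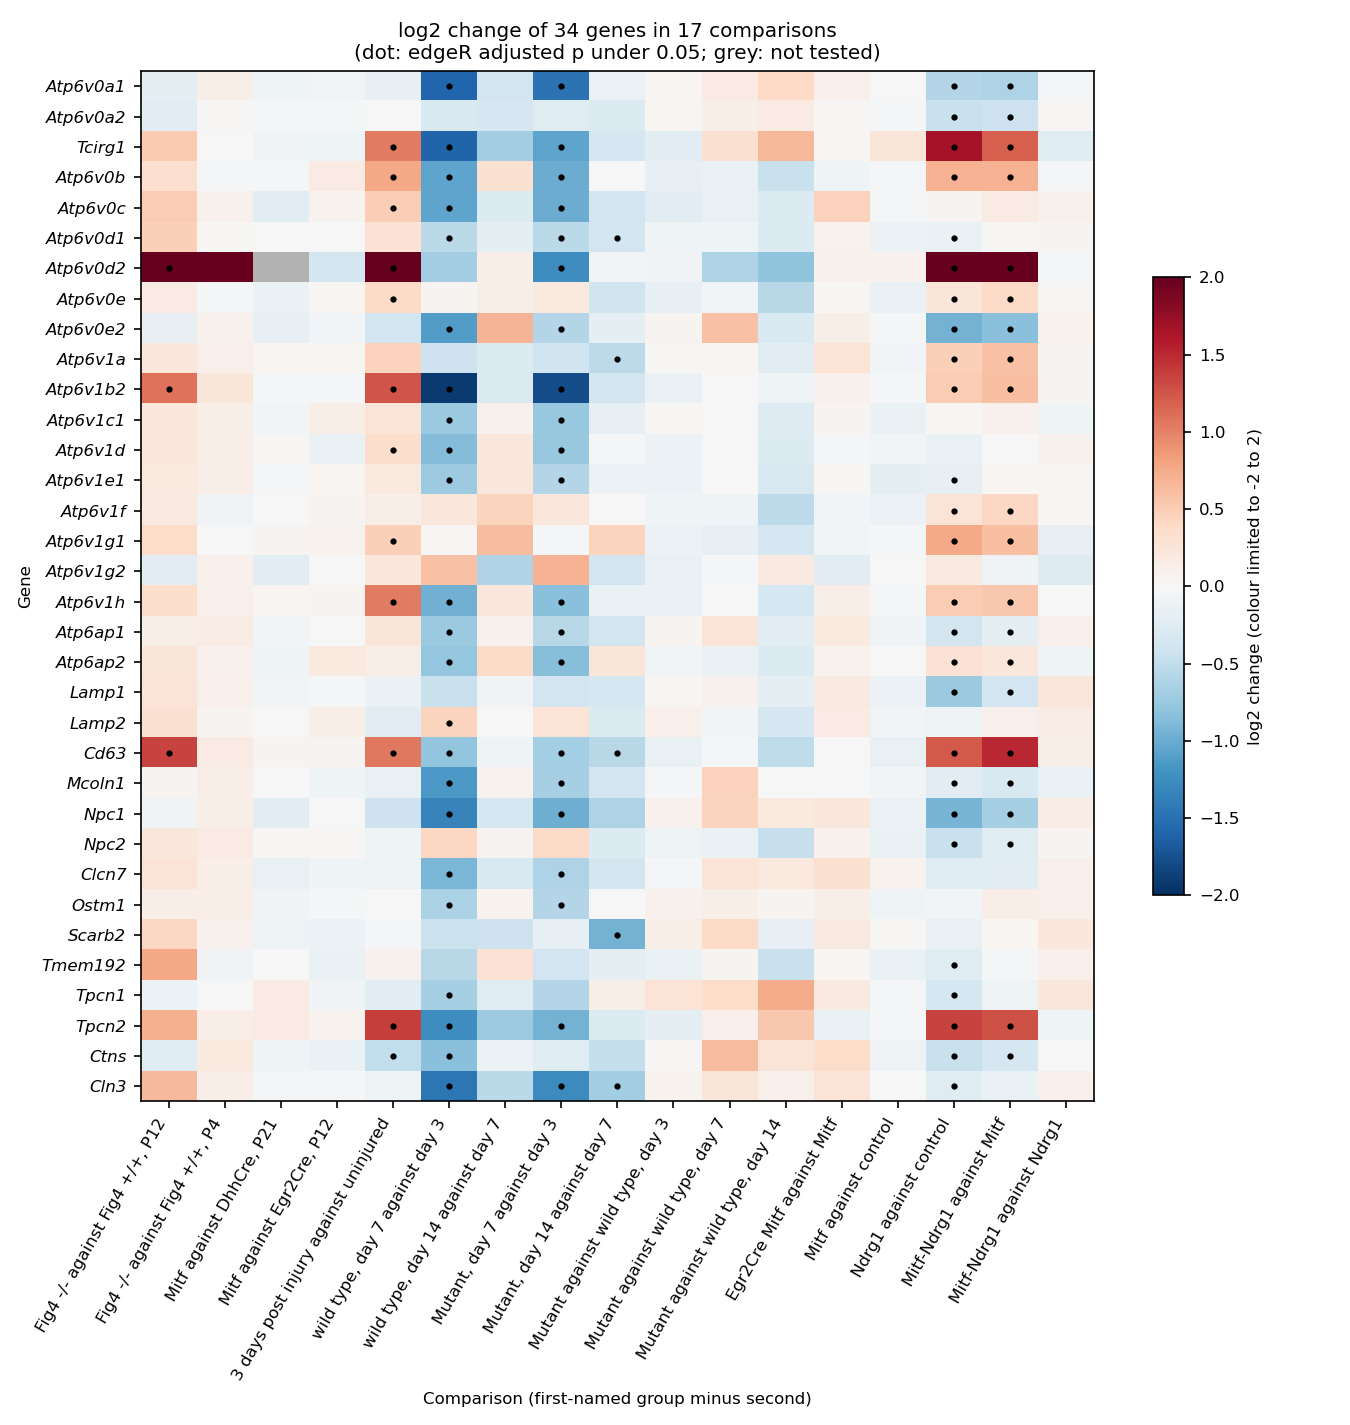
log2 change of the 34 genes (rows) in 17 comparisons of group pairs (columns), in colour limited to -2 and 2; dots mark edgeR adjusted p under 0.05 and grey marks a gene that missed the low-count filter. The 5 columns with most dots are injury, day 7 against day 3 in both genotypes, and both comparisons across the Ndrg1 label, while columns that differ in the Mitf or Mutant label have none.

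In Ndrg1 against control nerves, 12 of the 34 genes rose and 14 fell, against 60.5% of 15910 genes called, 30.8% higher and 29.7% lower. In Mitf-Ndrg1 against Mitf nerves, 12 rose and 9 fell, against 57.6% of all genes called, 29.7% higher and 27.9% lower. With 60.5% of all genes called, a call by itself sets none of the 34 genes apart. Among the 9 V0 subunits, 4 rose and 4 fell in Ndrg1 against control. Tcirg1 had 102, 113, 62.5, 113 and 117 CPM in Ndrg1 nerves and between 26.9 and 37.8 CPM with a median of 32.5 in control nerves (n = 6), a log2 change of 1.67 ± 0.116 (edgeR adjusted p = 1.3e-11). The other a subunits went the other way: Atp6v0a1 changed by -0.59 ± 0.136 and Atp6v0a2 by -0.45 ± 0.0825. For Atp6v0a1 the groups did not overlap, with 77.4 CPM as the highest Ndrg1 and 84.6 CPM as the lowest control value. Per kb, Tcirg1 was thus the highest a subunit in Ndrg1 nerves with 33.4 CPM per kb, while Atp6v0a1 had 17.5. Atp6v0b rose by 0.69 ± 0.0991, with 156, 192, 116, 164 and 165 CPM in Ndrg1 nerves and between 86.5 and 115 CPM in control nerves. Atp6v0e2, a small V0 subunit, fell by 0.94 on the log2 scale, with values between 81.6 and 93.4 CPM in Ndrg1 and between 151 and 183 CPM in control nerves, whereas its counterpart Atp6v0e rose by 0.24. Atp6v0d1 changed by -0.14 ± 0.058, a call lost without control replicate 1, 2, 4 or 6 or Ndrg1 replicate 1, 3, 4 or 5, with log2 changes between -0.14 and -0.12.

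Among V1 subunits 5 of 9 rose and Atp6v1e1 fell in Ndrg1 against control. Atp6v1g1 changed by 0.75 ± 0.0992, Atp6v1h by 0.51 ± 0.0779, Atp6v1b2 by 0.51 ± 0.0647, Atp6v1a by 0.48 ± 0.0767 and Atp6v1f by 0.27 ± 0.0976. Atp6v1b2 had 125, 132, 130, 131 and 141 CPM in Ndrg1 nerves and between 87.3 and 101 CPM in control nerves (n = 6), without overlap. Atp6v1c1, Atp6v1d and Atp6v1g2 did not pass. The accessory subunits split, with Atp6ap2 higher by 0.29 ± 0.0837 and Atp6ap1 lower by 0.37 on the log2 scale. In Mitf-Ndrg1 against Mitf, whose libraries are other ones, Tcirg1 changed by 1.19 ± 0.115, Atp6v0b by 0.69 ± 0.0991, Atp6v1b2 by 0.60 ± 0.0646, Atp6v0a1 by -0.61 ± 0.136 and Atp6v0e2 by -0.84 ± 0.0933.

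Of the 14 membrane genes, 2 rose and 8 fell in Ndrg1 against control, and 2 rose and 5 fell in Mitf-Ndrg1 against Mitf. Cd63 had 373, 440, 374, 401 and 381 CPM in Ndrg1 nerves and between 158 and 188 CPM in control nerves (n = 6), a log2 change of 1.23 ± 0.0747 (edgeR adjusted p = 1.16e-12). Tpcn2 had 19.6, 20, 15.3, 21.2 and 21.5 CPM in Ndrg1 nerves and between 5.9 and 9.09 CPM in control nerves, a log2 change of 1.35 ± 0.111. For both genes every Ndrg1 library was above every control library. Lamp1 had 728, 743, 720, 755 and 707 CPM in Ndrg1 nerves and between 1098 and 1327 CPM in control nerves, a log2 change of -0.74 ± 0.0743 (edgeR adjusted p = 7.1e-09). Npc1 had 93.3, 89.3, 90.5, 103 and 85.9 CPM in Ndrg1 nerves and between 145 and 198 CPM in control nerves, a log2 change of -0.93 ± 0.139. Npc2 had 371, 390, 309, 376 and 339 CPM in Ndrg1 nerves and between 453 and 530 CPM in control nerves, a log2 change of -0.44 ± 0.0722. For these 3 genes every Ndrg1 library was below every control library. Ctns, Tpcn1, Tmem192, Cln3 and Mcoln1 also fell, by between 0.21 and 0.45 on the log2 scale, and Lamp2, Clcn7, Ostm1 and Scarb2 did not pass.

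**Figure D4:**
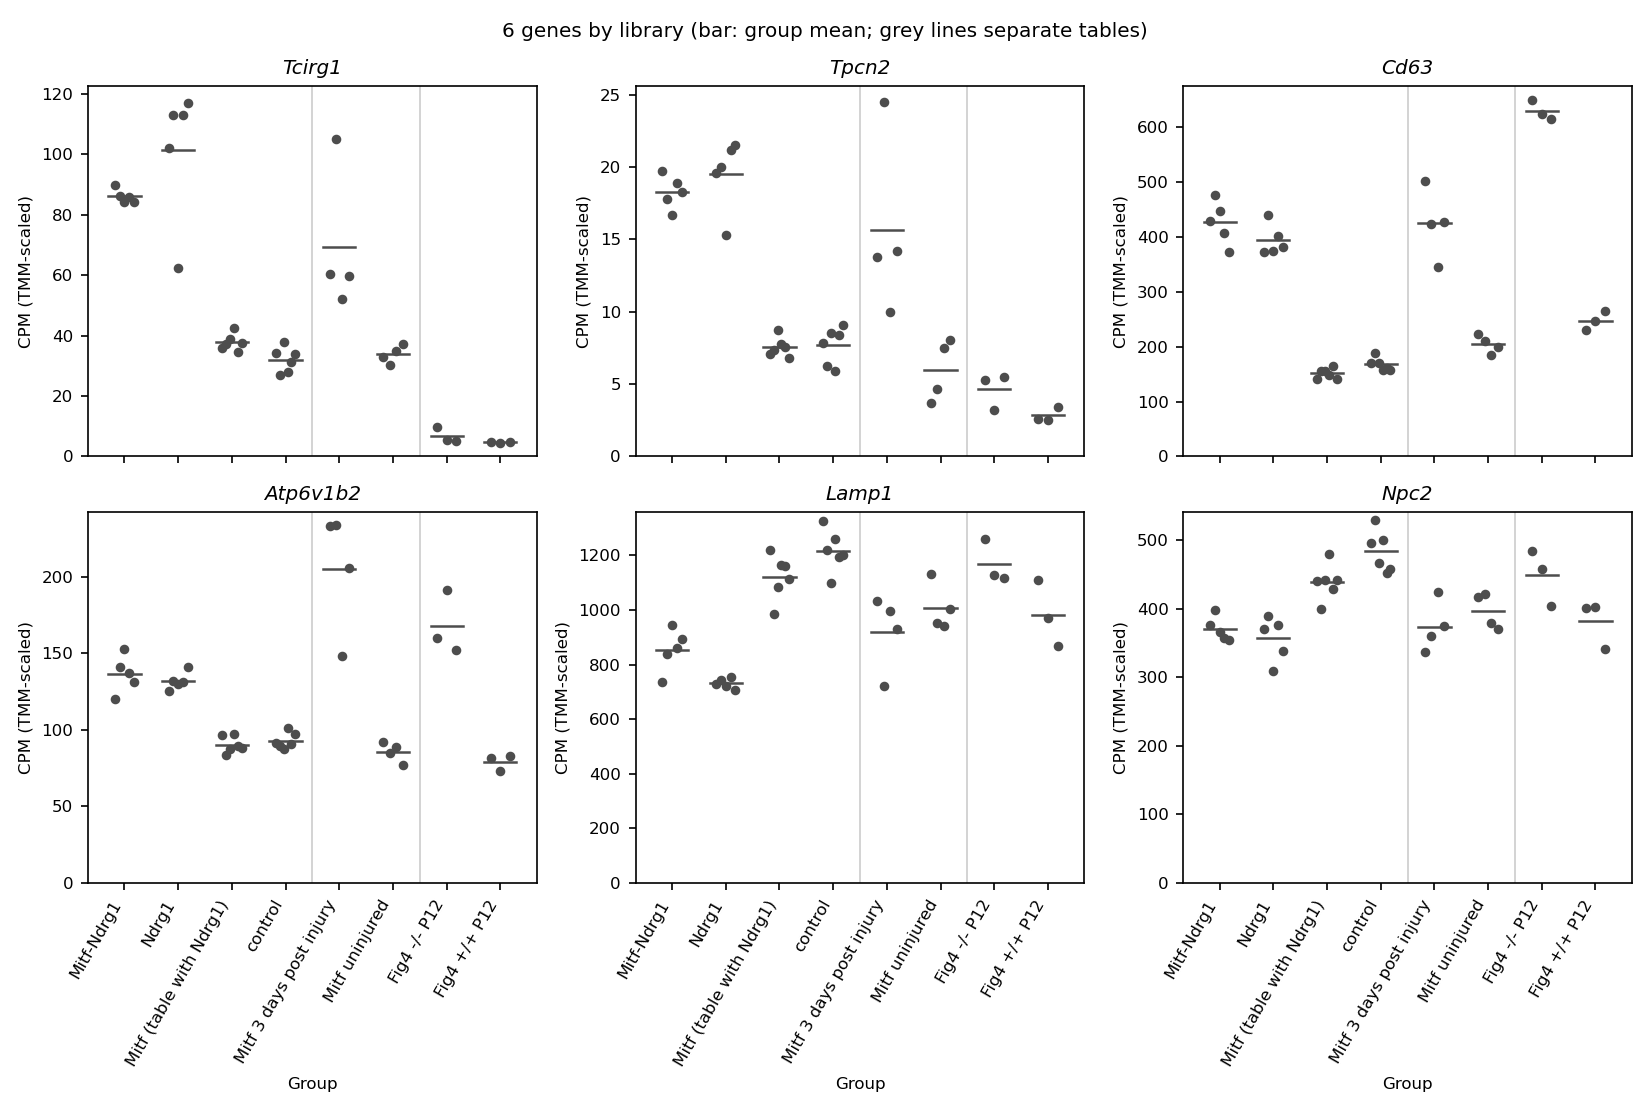
CPM by library for Tcirg1, Tpcn2, Cd63, Atp6v1b2, Lamp1 and Npc2 in the 4 groups of the table with Ndrg1, the injury table and the Fig4 table at P12; bars are group means and axes start at 0. Cd63 is higher in injured, Fig4 -/- and both Ndrg1-labelled groups, and Lamp1 and Npc2 are lower in the groups with an Ndrg1 label.

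Summed macrophage markers were between 4529 and 6001 CPM in Mitf-Ndrg1, 4401 and 5556 CPM in Ndrg1, 637 and 805 CPM in Mitf, and 636 and 834 CPM in control nerves, with 16 of 18 called higher and 1 lower in Ndrg1 against control. Summed Schwann cell markers were between 42553 and 70678 CPM in Mitf-Ndrg1, 48183 and 61300 CPM in Ndrg1, 147681 and 191734 CPM in Mitf, and 158359 and 187973 CPM in control nerves, with 9 of 10 called lower. The part of either in the changes of the 34 genes was not tested. Of 6 osteoclast markers tested in Ndrg1 against control, 4 were higher and 1 lower, with a median log2 change of 0.556, and the summed level of the list was between 102 and 144 CPM in Ndrg1 and between 108 and 120 CPM in control nerves. The higher ones were Dcstamp (5.02), Acp5 (1.33), Tnfrsf11a (0.75) and Ctsk (0.36), and Nfatc1 was the lower one (-0.34). Dcstamp, a fusion protein of osteoclasts and giant cells, averaged 0.398 ± 0.271 CPM in Ndrg1 (n = 5) and 0.00828 ± 0.0203 CPM in control nerves (SD, n = 6), both low levels. Of 14 Ragulator and Rag genes 7 rose and 2 fell, of 38 further lysosomal membrane genes 11 rose and 22 fell, and of 12 V-ATPase assembly genes 2 rose and 6 fell in Ndrg1 against control, where 60.5% of all genes were called, 30.8% higher and 29.7% lower.

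**Figure D5:**
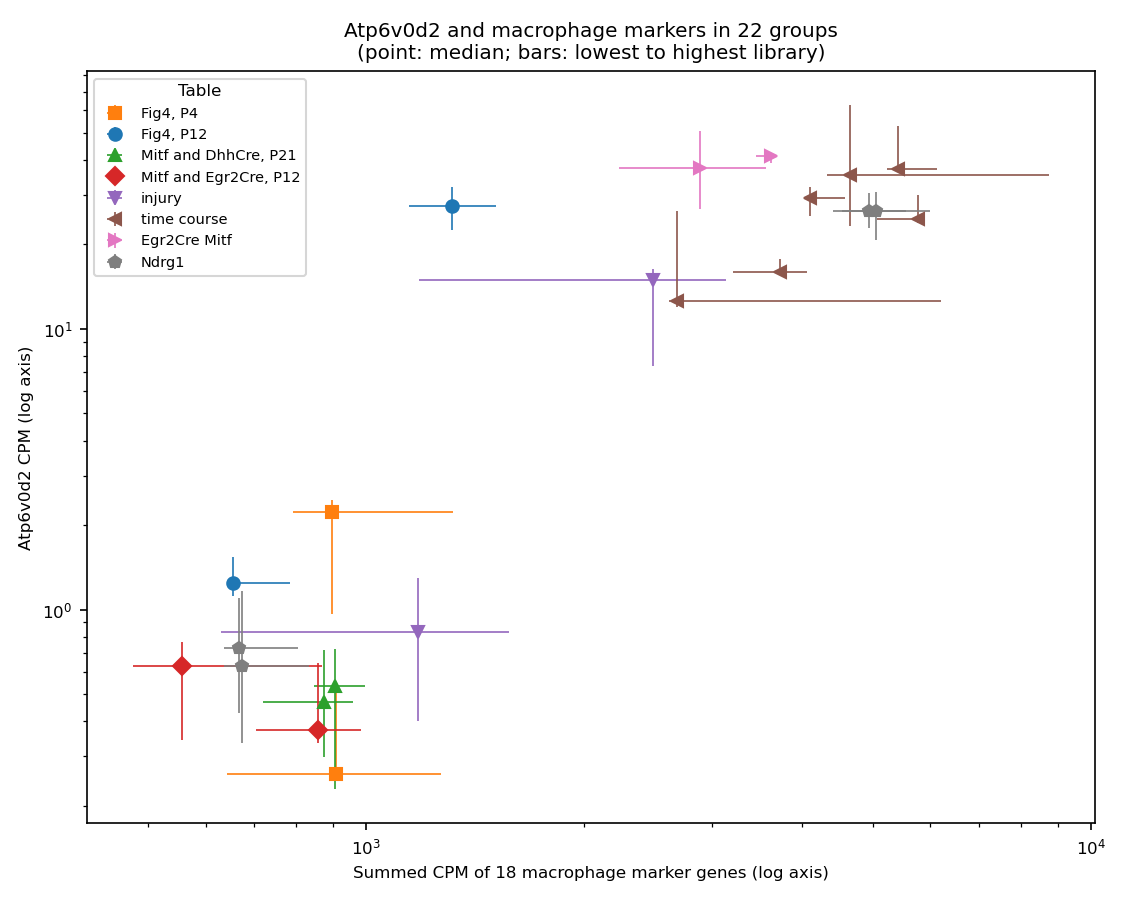
Median Atp6v0d2 CPM against the median summed CPM of 18 macrophage markers in the 22 groups, both on log axes, with bars from the lowest to the highest library and a symbol for each table. Fig4 -/- nerves at P12 stand at a median of 1313 CPM of macrophage markers and Fig4 +/+ nerves of the same table at 654 CPM, and the groups with an Ndrg1 label stand at 5050 and 4944 CPM, against 667 and 674 CPM in Mitf and control nerves of that table.

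In no comparison across the Mitf label did any of the 34 genes pass edgeR's test, and DESeq2 called 1 in Mitf-Ndrg1 against Ndrg1 and 1 in the interaction. At P21, 33 genes were tested in Mitf against DhhCre with a median log2 change of -0.0292, against -0.000751 over all genes, and 0.0143% of all 13943 genes were called. At P12, the median in Mitf against Egr2Cre was -0.00214 and 0.0139% of all genes were called. Egr2Cre Mitf against Mitf gave a median of 0.0757 with 0% of all 15482 genes called. Mitf against control gave -0.0432 with 0.00629% called, Mitf-Ndrg1 against Ndrg1 0.0479 with 1.47% called, and the interaction of both labels 0.109 with 0.39% called. At unadjusted p under 0.05 there were 1, 0, 2, 4, 2 and 5 of the 34 genes in these 6 comparisons, against 2.93%, 2.57%, 4.33%, 6.25%, 17.6% and 13.9% of all genes. In the interaction the 5 genes are 14.7% of the 34, near the share of all genes. The largest of them were Tcirg1 in the interaction (-0.48 ± 0.163, edgeR adjusted p = 0.174) and Atp6v0c in Egr2Cre Mitf against Mitf (0.46 ± 0.13, edgeR adjusted p = 0.846). Lamp1 showed 0.23 ± 0.0766 in Mitf-Ndrg1 against Ndrg1 (edgeR adjusted p = 0.123), with 737, 840, 944, 859 and 894 CPM in Mitf-Ndrg1 nerves against 728, 743, 720, 755 and 707 CPM in Ndrg1 nerves, and the groups overlapped. The 4 comparisons of the table with Ndrg1 and its interaction share libraries.

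The genes whose level followed Atp6v0d2 most closely over the 82 libraries, each table centred on its own mean, were Plekho1 (Pearson r = 0.928), Btc (0.920), Cxcl14 (0.919), Timp1 (0.915), Lgmn (0.914), Tnfrsf12a (0.911), Pbk (0.908) and Cd63 (0.905), among 13010 genes. Lgmn is a lysosomal protease, Timp1 an inhibitor of matrix proteases and Pbk a kinase of dividing cells. By rank correlation Cd63 came first with rho = 0.898. Among the other 33 genes, Tpcn2 (0.731), Tcirg1 (0.705) and Atp6v1h (0.70) were next to Cd63, Atp6v0d1 had r = 0.277, and Atp6v0e2 (-0.550) and Atp6v0a2 (-0.415) had the lowest values. The libraries of a group share their treatment, so these values describe mainly differences between groups and carry no test.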

How the data were processed

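The 8 deposited tables list genes with their estimated counts, which per the submitters' processing notes come from kallisto and mm10. Libraries were stranded mRNA libraries (TruSeq) from total RNA of quick-frozen nerve, per the labels' protocols. Estimated counts were rounded. Each table was fitted alone with edgeR 4.0.16 (R 4.3.3, limma 3.58.1): low-count filter with a minimum count of 10, TMM scaling, robust quasi-likelihood test over all genes, and Benjamini-Hochberg adjusted p under 0.05. CPM, log2 changes with SE and CPM per kb of the longest coding transcript (GENCODE) were computed here. Levels set across tables come from separate scalings. Ratios used a pseudocount of 0.5 CPM, with exact permutation tests in SciPy 1.17.1 (Python 3.11.15). Of the deposited columns, 0 were not used. No pair of replicates agreed within sampling noise, the chi-square over its degrees of freedom being at least 9.61 in 124 pairs.

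The 34 genes and the 15 other gene lists were chosen with earlier results of these data known. Genes are named by role, per-list names are at most the 4 largest calls, and the 8 genes most like Atp6v0d2 are named. The fitting steps were tested on simulated data. Replicate numbers were checked for pairing: correlations of same-numbered libraries' deviations were over 0.1 in every pair for Mitf against DhhCre (0.119 to 0.299) and Egr2Cre Mitf against Mitf (0.123 to 0.34) only. The alternatives tried were DESeq2 1.42.0, a replicate block, RLE scaling, fitting without a low-count filter or with the compared groups alone, leaving out each library, and pseudocounts of 2 and 0.1 CPM. Leaving out muscle-rich libraries and a muscle covariate were added after seeing the data.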

Additional observations from a re-analysis of the deposited data

Results flagged for a closer look

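Of 272 groups of 4 to 6 values, 17 had a library far from the others, a share near the about 5% that chance gives. An entry below is therefore no finding by itself, and genes of the same library are not independent. Ndrg1 replicate 3 accounted for 5 of the 17: it was lowest of its group for Atp6v0a1 (51.7 CPM), Tcirg1 (62.5 CPM), Atp6v0c (102 CPM) and Clcn7 (27.2 CPM), and highest for Atp6ap2 (146 CPM). Mitf-Ndrg1 replicate 3 was highest for Lamp2 (310 CPM) and Ostm1 (51.5 CPM). Control replicate 4 was highest for Atp6v1d (62.3 CPM). Among injured nerves, replicate 2 was highest for Tcirg1 (105 CPM) and replicate 1 for Atp6v0c (277 CPM) and Atp6v1g2 (19.0 CPM). Among DhhCre nerves, replicate 2 was highest for Tcirg1 (17.3 CPM), replicate 4 for Atp6v1c1 (69.0 CPM) and replicate 3 for Clcn7 (43.7 CPM) and Tmem192 (20.4 CPM), and replicate 1 was lowest for Atp6v1b2 (89.7 CPM). Mitf replicate 1 at P21 was lowest for Cln3 (17 CPM).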

How the results depend on the processing

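By DESeq2, 6 of the 34 genes were called in Fig4 -/- nerves at P12, 2 in wild type at day 14 against day 7, 5 in Mutant against wild type at day 14, and 1 each in Mitf-Ndrg1 against Ndrg1 and in the interaction. Without the low-count filter 7 were called in Fig4 -/- at P12 and 2 in Mutant at day 14 against day 7. RLE scaling gave 1 in wild type at day 14 against day 7. For Mutant at day 14 against day 7 the compared groups alone gave 0 and the libraries without high muscle 13 (1 higher and 12 lower, against 13.6% of all genes in each direction), where Atp6v1f (-0.93) and Atp6v1g1 (-0.82) turned lower. Atp6v0d2 at day 7 against day 3 changed in Mutant by -1.22 with the compared groups alone, not past the threshold. It changed by -1.23 in the fit without muscle-rich libraries, which dropped none of these Mutant libraries, and did not pass either. In wild type it changed by -0.67 with the groups alone and -1.21 with the muscle covariate, which went together with day, both past it. The causes were not tested. With 1 library left out, counts ran from 3 to 5 in Fig4 -/- at P12, 6 to 14 after injury, 0 to 1 in wild type at day 14 against day 7, 0 to 8 in Mutant at day 14 against day 7, 0 to 12 in Mutant against wild type at day 14, and 0 to 1 in Mitf-Ndrg1 against Ndrg1 and in the interaction. Atp6v0d2 in Mutant at day 7 against day 3 ran from -1.70 to -0.77. The log2 ratio of d subunits ran from 4.59 to 4.82 in Ndrg1 against control and from 4.32 to 4.47 in Mitf-Ndrg1 against Mitf, past the adjusted threshold in none, since fewer samples raise the smallest p. With pseudocounts of 2 and 0.1 CPM it was 3.54 and 5.33 in Ndrg1 against control, 3.31 and 4.98 in Mitf-Ndrg1 against Mitf, 2.67 and 3.81 in Fig4 -/- at P12, and 2.13 and 3.63 after injury. With a replicate block the counts were 9 after injury, 22 and 4 for the steps of Mutant nerves, and 23 in Ndrg1 against control, and it changed no other count. These counts show only how calls depend on the setting.

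Over all genes, DESeq2 called 959 in Fig4 -/- at P12 against 435 by edgeR, 2440 against 1175 in wild type at day 14 against day 7, 241 against 0 and 2339 against 1314 in Mutant against wild type at days 7 and 14, 768 against 234 in Mitf-Ndrg1 against Ndrg1 and 414 against 62 in the interaction. With the compared groups alone, 88 against 2807 genes were called in Mutant at day 14 against day 7. Among values uncalled in both settings, 524 of 6872 had another sign. The compared groups alone could not be fitted for the interaction, nor could wild type at day 14 or the seventh table be fitted without muscle-rich libraries.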

Other observations

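Other pump genes outside the 34 also moved in the time course. Atp6v0a4, an a subunit known from kidney, changed by 3.23 in Mutant and 2.80 in wild type nerves on the log2 scale between day 3 and day 7, and Rnasek, a small pump-associated protein, by -0.92 in Mutant and -1.34 in wild type nerves. Of the 4 MiT/TFE factors, Tfec alone was called in Ndrg1 against control, with a change of 3.64, where 60.5% of all genes were called. The median log2 change of the 4 was -0.0435, and Tfec was low, with a mean of 1.53 CPM over the 82 libraries. Of 8 pigment cell markers, 3 were tested in Fig4 -/- against Fig4 +/+ nerves at P12, and 2 of them passed: Pmel changed by 5.17 and Tyrp1 by 3.99, while Dct did not pass (2.52). Tyr, Mlana, Slc45a2 and Trpm1 were at 0 in every Fig4 -/- library at P12.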
